A study of Homo sapiens with 12 samples.

Results

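The HOX cluster genes are described here in K562 cells with and without the heme transporter HRG1. Members were all gene symbols made of HOX, a cluster letter from A to D and a paralogue number, which gave 39 of the 28278 genes in the count table. The HOXA cluster had 11 members, HOXB 10, HOXC 9 and HOXD 9. Of these, 25 had enough reads to be tested (7 of HOXA, 8 of HOXB, all 9 of HOXC and 1 of HOXD). The 25 passed a filter on low counts, some of them only through the groups in which they were high, so they do not stand for all 39.

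K562 is a human erythroleukaemia line that carries the BCR-ABL1 fusion and can be pushed towards red cell features by sodium butyrate, a histone deacetylase inhibitor. The 4 groups, of 3 libraries each, were WT K562 left untreated, WT K562 with sodium butyrate, HRG1-KO K562 left untreated and HRG1-KO K562 with sodium butyrate, all placed at day 8 of differentiation by the series design. Treated cells received 0.75 mM butyrate first at 24 h from plating and once more after a further 48 h, with harvest 6 h later. HRG1 is the protein of SLC48A1, which moves heme across membranes. The way the knockout was made and the number of edited clones are not given in the sources used here, so the knockout and any other difference between the WT and KO lines cannot be told apart. Nothing in the labels says that the replicates were separate cultures, and p-values then measure only the spread between these libraries.

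HOX proteins are homeodomain transcription factors that give cells their position along the body axis. Within a cluster the genes lie in the order of their paralogue numbers, with low numbers (anterior genes) at the 3′ end and high numbers (posterior genes) at the 5′ end, and neighbouring genes are often active together. Polycomb complexes keep the clusters silent and MLL complexes keep them active. In blood, HOXA and HOXB genes are known for their activity in stem and progenitor cells.

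In the hg38 genome and the GENCODE release 29 annotation, HOXA lay on the minus strand of chromosome 7, HOXB on the minus strand of chromosome 17 (48528526 to 48729178), HOXC on the plus strand of chromosome 12 (53938765 to 54056030) and HOXD on the plus strand of chromosome 2 (176092891 to 176190907). RefSeq promoters (GRCh38.p14) matched 20 of the 39 members. The 250 bases upstream of the RefSeq starts of HOXD13 and of HOXA11, which lie upstream of the GENCODE starts given with their values, are shown because these genes had the lowest WT levels among the members that were higher in KO in both treatments, and because neither window holds a UTR in the annotation. Capitals mark matches, on either strand, to 5 motifs: TATAAA (the TATA box core), CCAAT (the CCAAT box), GATAA (bound by GATA factors), TGATNNAT (bound by HOX with PBX) and TTTATTG.
HOXD13, chr2:176092471-176092720, plus strand: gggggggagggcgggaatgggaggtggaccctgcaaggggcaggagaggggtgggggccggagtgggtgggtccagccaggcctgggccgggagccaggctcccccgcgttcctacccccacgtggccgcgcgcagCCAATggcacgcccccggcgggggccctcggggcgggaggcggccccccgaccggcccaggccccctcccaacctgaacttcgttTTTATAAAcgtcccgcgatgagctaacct
HOXA11, chr7:27185233-27185482, minus strand: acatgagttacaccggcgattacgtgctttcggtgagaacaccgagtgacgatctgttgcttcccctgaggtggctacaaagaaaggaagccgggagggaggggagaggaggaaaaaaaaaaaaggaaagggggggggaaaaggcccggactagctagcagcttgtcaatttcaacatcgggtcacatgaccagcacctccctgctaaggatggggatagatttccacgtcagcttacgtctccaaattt
The HOXD13 window held 2 overlapping TATAAA matches, read on opposite strands, and 1 CCAAT match. It held 21 CpG dinucleotides, against a median of 11 over the 35116 promoters of the reference. The HOXA11 window held none of the 5 motifs and 11 CpG dinucleotides, and it overlaps an exon of the antisense gene HOXA11-AS. Of all promoters, 10.7% held TATAAA, 32.0% CCAAT, 20.4% GATAA, 6.47% TGATNNAT and 3.66% TTTATTG.

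Library totals ran from 19963594 to 30348538 counts. SLC48A1, the knockout target, had 1357 to 1945 counts in the WT libraries and 55 to 313 in the KO libraries. All 11 K562 and erythroid markers were detected in every group, with summed levels, in CPM (counts scaled to library size by TMM), of 8290 to 18000 in untreated WT and 3680 to 6360 in untreated KO. With butyrate the sums were 26400 to 57000 in WT and 4480 to 6650 in KO. PF4, GP1BB, MS4A1 and LUM, which mark platelets, B cells and stroma, had 0 counts in every library. Of the markers of other blood cells and stroma, 1 or 2 of 5 megakaryocyte, 2 or 3 of 6 granulocyte and monocyte, 2 of 5 lymphoid and 1 of 5 stromal genes were detected, depending on the group. The megakaryocyte sum was 26.5 to 50.2 CPM in untreated WT and 5.3 to 19.4 in untreated KO, and with butyrate 96.0 to 208 and 51.7 to 65.2. In the same order the granulocyte and monocyte sum was 40.8 to 63.7, 26.1 to 83.3, 63.1 to 97.8 and 116 to 155, and the lymphoid sum 14.8 to 22.4, 4.07 to 5.66, 11.7 to 24.3 and 9.05 to 12.1. The stromal sum was 2.17 to 5.11 and 2.35 to 5.12 CPM, and with butyrate 44.0 to 110 and 69.1 to 157, nearly all of it from COL1A1. ITGA2B and COL1A1 were higher with butyrate in both lines, and ITGA2B, SPI1 and LYZ were lower in untreated KO than in untreated WT (edgeR). The part of these marker differences in the HOX results was not tested, and fewer cells of a type and less RNA per cell cannot be told apart in bulk samples. Replicate 1 of treated WT stood apart from the other treated WT libraries, with a chi-square per degree of freedom of 188 and 286 against them, where those libraries gave 38.9 against each other. Libraries with the same replicate number deviated together, so values from a fit with the number as a block stand beside the results they change.

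HOXB carried most HOX reads in every group. Summed over its members, HOXB reached 446 ± 69.8 CPM (SD, n = 3) in WT and 410 ± 81.0 in KO without treatment. With butyrate it reached 303 ± 71.2 in WT and 242 ± 74.1 in KO. The HOXC sum was 25.8 ± 2.00 CPM in untreated WT and 43.1 ± 8.50 in treated WT, but 105 ± 16.2 in untreated KO and 120 ± 18.0 in treated KO. All KO libraries lay above all WT libraries in the HOXC sum, with ratios of means of 4.09 in untreated and 2.77 in treated cells. The HOXD sum was 0.171 ± 0.150 CPM in untreated WT and 0.404 ± 0.362 in treated WT, against 14.0 ± 0.814 in untreated KO and 6.82 ± 2.80 in treated KO. HOXD13 made up 99.6% of that sum in untreated KO. The HOXA sum was low in all groups, at 10.7 ± 2.96, 15.2 ± 5.88, 16.3 ± 1.39 and 17.9 ± 2.02 CPM in the same order, but its leading member changed from HOXA3 in untreated WT (42.7% of the sum) to HOXA11 in untreated KO (47.3%).

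**Figure D1:**
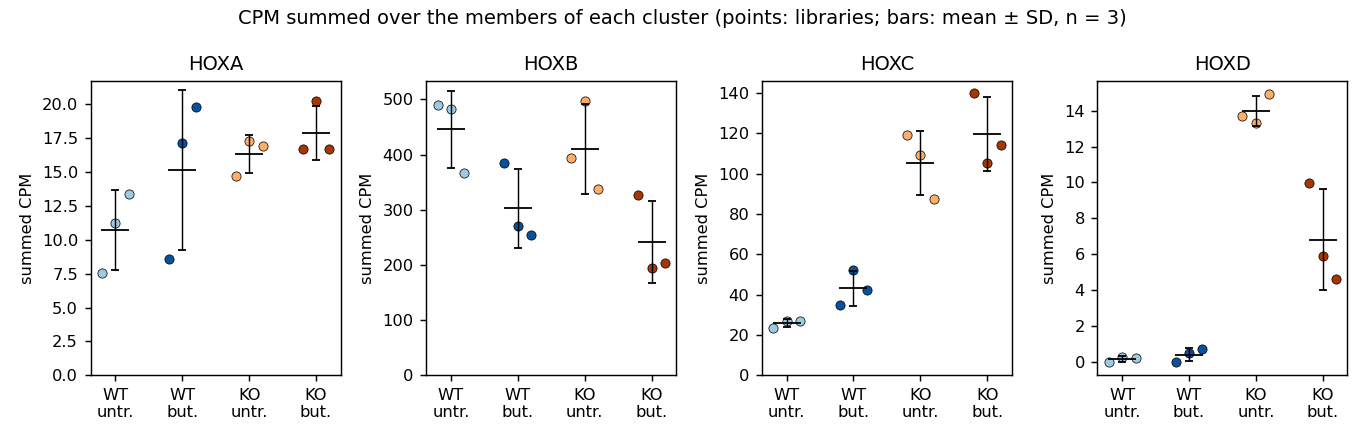
CPM summed over the members of each HOX cluster (y axis, CPM; each panel has its own scale) in the 4 groups (x axis). Points are libraries in order of replicate number and bars are the mean ± SD of 3 libraries; the HOXC and HOXD points of the KO groups all lie above those of the WT groups.

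Along the paralogue numbers, the clusters differed in which end was read. With a gene called detected at 10 counts or more in every library of a group, 17 members were detected in each WT group, 21 in untreated KO and 22 in treated KO. In HOXB the same 8 genes, HOXB2 to HOXB9, were detected in every group, while HOXB1 never passed 4 counts and HOXB13 never passed 9. In HOXC, 6 of 9 genes were detected in each WT group and all 9 in each KO group. In HOXA, HOXA2 was detected in both WT groups and in neither KO group, and HOXA3 in both WT groups and in treated KO. HOXA5 and HOXA11 were detected in both KO groups and in neither WT group. HOXA5 fell under 10 counts in WT only in replicate 1. Its WT counts were 5, 34 and 72 untreated and 0, 58 and 64 treated. The mean CPM of HOXA5 was not higher in KO than in WT in either treatment, so its detection in KO does not mark a rise. HOXD had no detected gene in WT and HOXD13 alone in KO. Among the 16 genes with numbers 9 to 13, which mark posterior positions, 4 were detected in untreated WT, 5 in treated WT and 8 in each KO group. Among the 8 genes with numbers 1 to 3, 5 were detected in each WT group, 3 in untreated KO and 4 in treated KO.

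Most members with no reads or almost none lay in HOXA and HOXD. HOXA9, HOXA10, HOXD4, HOXD9, HOXD10 and HOXD11 had 0 counts in all 12 libraries. HOXA7, HOXD1, HOXD3 and HOXD12 had at most 3 counts in any library, which is the limit of detection used here (0.0953 to 0.162 CPM). In HOXB, HOXB1 had 1 and 4 counts in 2 libraries and 0 in the other 10. HOXA7, HOXA9 and HOXA10 lie between HOXA5 and HOXA11, both detected in KO, so the KO reads of HOXA came from separate stretches of the cluster. HOXA5 also had reads in every WT library except treated replicate 1. HOXA9 and HOXA10 are known for their activity in myeloid leukaemias with MLL fusions. HOXC11 and HOXC12, which lie between HOXC10 and HOXC13, carried reads in all KO libraries.

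**Figure D2:**
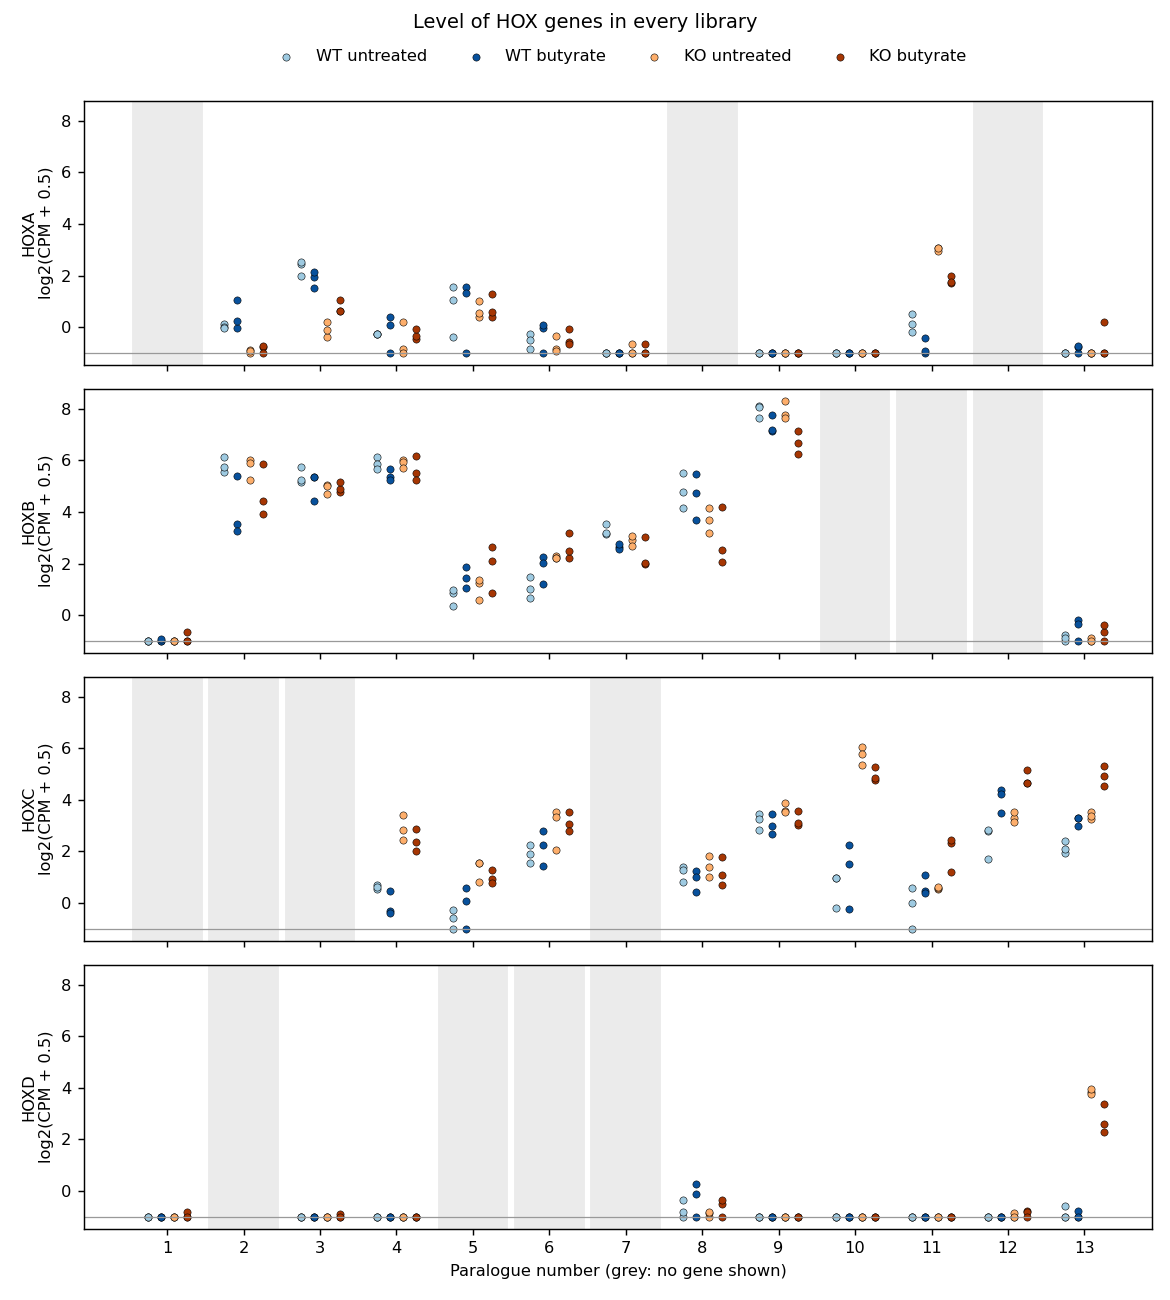
Level of HOX genes in every library, as log2(CPM + 0.5) on the y axis, by paralogue number on the x axis, with 1 panel per cluster. Points are libraries coloured by group, the grey line is 0 CPM and grey bands are numbers with no gene shown; HOXB2 to HOXB9 are read in all groups, HOXC10 and HOXD13 stand high in KO libraries, and HOXA9, HOXA10 and most HOXD genes lie on the line.

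Levels were compared between genes only per kilobase of exon. HOXB9 had the highest mean of the HOX genes in every group, at 96.2 ± 17.3 CPM per kb (SD, n = 3) in WT and 94.2 ± 24.6 in KO without treatment. With butyrate it had 64.6 ± 17.4 CPM per kb in WT and 41.0 ± 12.6 in KO, where its libraries overlapped those of HOXB2. In untreated WT, HOXB2 followed at 35.7 ± 7.58 CPM per kb with no overlap with its neighbours in the order, and then came HOXB8 (16.3 ± 7.67) and HOXB4 (15.7 ± 2.57), whose libraries overlapped. HOXC9 led the HOXC cluster there, at 5.56 ± 1.24 CPM per kb. In untreated KO, HOXC10 took the third place at 27.5 ± 6.54 CPM per kb, where it overlapped HOXB2 (34.1 ± 8.91) and lay above every library of HOXB4 (15.6 ± 1.70). HOXD13 reached 6.21 CPM per kb in untreated KO, where the highest HOXD gene of untreated WT, HOXD8, had 0.0438.

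The comparison of KO with WT asks how expression differed between the lines, where the loss of HRG1 cannot be told apart from other differences. In untreated cells, 8 of the 25 tested members passed an adjusted p of 0.05 (edgeR's quasi-likelihood test, Benjamini-Hochberg over 15805 genes), 6 higher and 2 lower, against 22.6% of all tested genes (11.7% higher and 10.9% lower). In treated cells, 7 of 25 passed, 5 higher and 2 lower, against 19.0% of all tested genes (10.1% higher and 8.89% lower). The members' shares were 32.0% and 28.0%, and with this few genes they are read as descriptions. The median log2 fold change of the 25 was 0.48 in untreated and 0.45 in treated cells, where that of all tested genes was 0.02 and -0.00. By position, 4 of the 8 tested genes with numbers 9 to 13 were higher in both treatments. Of the 12 with numbers 4 to 8, 2 were higher in untreated and 1 in treated cells. Of the 5 with numbers 1 to 3, 2 were lower in both. The count filter kept 8 of the 16 members with numbers 9 to 13. HOXD13 passed it only through KO libraries and HOXA2 only through WT libraries. The shares by position are thus partly set by the filter and do not describe the untested members. KO and WT libraries did not overlap for 15 of 25 members in untreated cells, against 42.3% of all genes, and for 10 of 25 in treated cells, against 33.9%. A two-sided exact permutation test of 3 libraries against 3 cannot go below p = 0.1, so the calls rest on the fit across all genes.

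**Figure D3:**
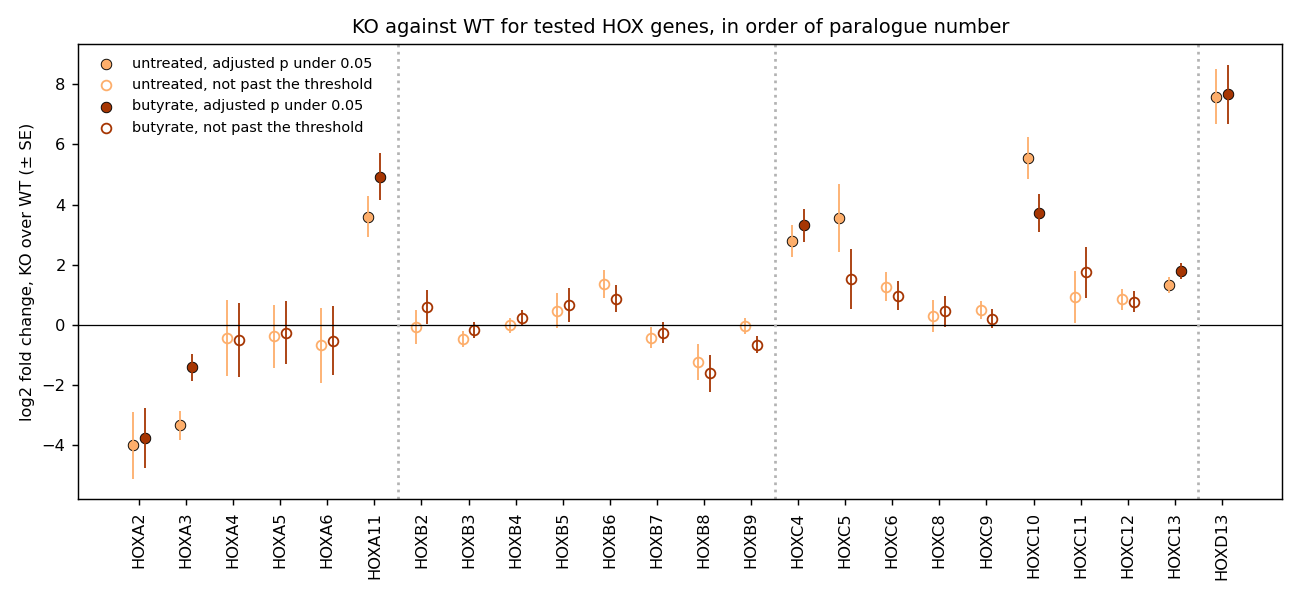
Log2 fold change of KO over WT with its SE (y axis) for tested HOX genes in order of cluster and paralogue number (x axis), in untreated and butyrate-treated cells. Filled points passed an adjusted p of 0.05 in edgeR; the filled points lie at HOXA2, HOXA3, HOXA11, HOXC4, HOXC5 (untreated only), HOXC10, HOXC13 and HOXD13, and none lies in HOXB.

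In HOXC, 4 members were higher in untreated KO (HOXC4, HOXC5, HOXC10 and HOXC13) and 3 in treated KO, and HOXC10 had the highest level per kb of the cluster in both KO groups. HOXC10 (chromosome 12, 53985065 to 53990279) is a posterior gene known from the lumbar spine and hindlimb. Its untreated libraries held 7, 32 and 44 counts in WT and 1223, 1135 and 1201 in KO. The treated ones held 7, 100 and 74 in WT and 833, 816 and 887 in KO. Every KO library thus held at least 816 counts and no WT library more than 100. The mean was 1.11 ± 0.637 CPM in untreated WT and 53.2 ± 12.7 in untreated KO, a log2 fold change of 5.54 ± 0.70 (SE, adjusted p = 0.000135 in edgeR). In treated cells it was 2.33 ± 1.95 against 31.3 ± 6.11 CPM, a log2 fold change of 3.73 ± 0.64 (adjusted p = 0.00153 in edgeR), which ranged from 3.23 without treated WT replicate 1 to 4.47 without treated WT replicate 2.

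HOXC10 shares exonic sequence with its antisense gene HOXC-AS3 and with the same-strand gene AC012531.2. The use of strand in counting is not given in the sources used here, so reads of these genes cannot be told apart. HOXC-AS3 had 0 counts in each untreated WT library and 20, 28 and 49 in untreated KO, at least 10.0-fold higher against the limit of 3 counts per library (adjusted p = 0.00641 in edgeR).

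HOXC13, at the 5′ end of the cluster (53938765 to 53946544) and known for its role in hair and nail formation, was higher in KO in both treatments. It had 61, 81 and 142 counts in untreated WT and 203, 191 and 294 in untreated KO, or 3.95 ± 0.753 against 9.93 ± 0.893 CPM (log2 fold change 1.33 ± 0.27, adjusted p = 0.00386 in edgeR). With butyrate it had 182, 221 and 232 counts in WT and 845, 897 and 701 in KO, or 8.75 ± 1.19 against 30.3 ± 8.13 CPM (log2 fold change 1.79 ± 0.27, adjusted p = 0.000669 in edgeR). The groups did not overlap in either treatment. Its antisense gene HOXC13-AS had 0 counts in untreated WT and 13, 23 and 37 in untreated KO, and at most 1 count in treated WT against 119, 79 and 102 in treated KO. That was at least 7.52-fold higher in untreated cells, and in treated cells the means were 0.0248 ± 0.0222 CPM in WT and 3.79 ± 1.49 in KO. The reads of this pair cannot be told apart either.

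HOXC4, at the 3′ end of the cluster (54016931 to 54056030) and known from lymphoid cells, was also higher in both treatments. Its counts were 21, 21 and 31 in untreated WT and 93, 215 and 198 in untreated KO, or 1.05 ± 0.0819 against 7.27 ± 2.68 CPM (log2 fold change 2.79 ± 0.53, adjusted p = 0.00226 in edgeR). With butyrate they were 6, 6 and 28 in WT and 148, 108 and 146 in KO (log2 fold change 3.32 ± 0.55, adjusted p = 0.00118 in edgeR, and 4.11 without treated WT replicate 3). No KO library overlapped a WT library.

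HOXC5 had 0, 7 and 5 counts in untreated WT and 45, 27 and 72 in untreated KO, a log2 fold change of 3.56 ± 1.12 (adjusted p = 0.0370 in edgeR). That call held in only 3 of the 12 fits that left out a library, those without replicate 1 or 3 of treated WT or replicate 1 of treated KO, and the adjusted p of the other 9 ran from 0.0522 to 0.112. In treated cells HOXC5 had 0, 13 and 31 counts in WT and 31, 37 and 60 in KO and did not pass (log2 fold change 1.53 ± 1.01, adjusted p = 0.336 in edgeR). HOXC4 shares exonic sequence with HOXC5 and HOXC6 in the annotation, and HOXC5 with the same-strand gene AC012531.2. The reads of these genes could thus be split between them by the counting.

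The other HOXC members did not pass in either treatment in edgeR, though all had a positive log2 fold change of KO over WT in both. HOXC6 had 3.29 ± 0.887 CPM in untreated WT and 8.01 ± 3.87 in untreated KO, with overlapping libraries (adjusted p = 0.0804 in edgeR, and 0.0426 in DESeq2). HOXC9 had 8.66 ± 1.93 against 12.2 ± 1.81 CPM and HOXC8 1.78 ± 0.469 against 2.21 ± 0.743 CPM. HOXC12 had 5.24 ± 2.15 CPM in untreated WT and 9.49 ± 1.30 in untreated KO (log2 fold change 0.85 ± 0.35, adjusted p = 0.103 in edgeR, and 0.0230 with the replicate number as a block). In treated cells HOXC12 had 16.4 ± 4.98 against 28.2 ± 6.12 CPM (log2 fold change 0.78 ± 0.35, adjusted p = 0.140 in edgeR, and 0.0396 with the block). Other tested genes of chromosome 12 had a median log2 fold change of 0.02 in untreated and -0.03 in treated cells, and the 39 tested genes within 1000 kb of the cluster 0.04 and -0.07.

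HOXD13, the 5′-most gene of its cluster (chromosome 2, 176092891 to 176095938) and known for its role in the digits, was higher in KO in both treatments. Its counts in untreated cells were 0, 0 and 5 in WT and 256, 278 and 443 in KO. In treated cells they were 0, 2 and 0 in WT and 215, 167 and 134 in KO. The lowest KO library thus held 134 counts and the highest WT library 5. In untreated cells the mean was 0.0560 ± 0.0971 CPM in WT and 13.9 ± 0.816 in KO (log2 fold change 7.59 ± 0.92, adjusted p = 9.6e-05 in edgeR). This value rose to 11.39 without untreated WT replicate 3, the only untreated WT library with reads. In treated cells, where no WT library passed the limit of 3 counts, KO was at least 52.0-fold higher (6.57 ± 2.92 CPM, adjusted p = 0.0002 in edgeR). The other 8 HOXD genes were too low to be tested. Other tested genes of chromosome 2 had a median log2 fold change of 0.10 in untreated and 0.09 in treated cells, and 13.8% and 11.3% of them were called higher.

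HOXA showed falls at its 3′ end and a rise at HOXA11. HOXA3 (chromosome 7, 27106184 to 27152581), known for its role in the thymus and parathyroid, had 64, 107 and 158 counts in untreated WT and 5, 9 and 19 in untreated KO. That was 4.58 ± 0.981 against 0.444 ± 0.184 CPM, and HOXA3 fell by 3.33 ± 0.49 on the log2 scale (adjusted p = 0.000426 in edgeR). With butyrate it had 64, 56 and 124 counts in WT and 34, 32 and 32 in KO, or 3.22 ± 0.780 against 1.22 ± 0.299 CPM (log2 fold change -1.40 ± 0.45, adjusted p = 0.0476 in edgeR). KO lay below WT in every library in both treatments. Exons of HOXA3 overlap the antisense gene HOXA-AS2 and the same-strand gene AC004080.6, so their reads cannot be told apart. The call in treated cells held in 2 of the 12 fits that left out a library, those without replicate 1 or 3 of untreated KO, and the adjusted p of the other 10 ran from 0.0535 to 0.145.

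HOXA2 (27100354 to 27102811), the HOX gene of the second pharyngeal arch, had 11, 11 and 14 counts in untreated WT and 0, 1 and 1 in untreated KO. With butyrate it had 30, 11 and 21 counts in WT and 2, 3 and 0 in KO. All KO libraries were at or under the limit of 3 counts, so HOXA2 was at least 3.91-fold lower in untreated cells (adjusted p = 0.0207 in edgeR) and at least 8.07-fold lower in treated cells (adjusted p = 0.0201 in edgeR). In untreated cells the call was lost without replicate 1, 2 or 3 of untreated KO (adjusted p 0.0752, 0.0594 and 0.0684). In treated cells it was lost without treated WT replicate 1 (0.0547) and without treated KO replicate 2 or 3 (0.0542 and 0.0611). Without all libraries numbered 1 it was lost in both (0.0701 untreated and 0.0622 treated).

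HOXA11 (27181510 to 27185223), known for its role in the forearm and the uterus, moved the other way. Its counts in untreated cells were 11, 8 and 27 in WT and 148, 153 and 238 in KO. In treated cells they were 0, 6 and 1 in WT and 61, 106 and 90 in KO. All KO libraries lay above all WT libraries. In untreated cells the means were 0.625 ± 0.269 and 7.72 ± 0.383 CPM (log2 fold change 3.60 ± 0.68, adjusted p = 0.00221 in edgeR). In treated cells they were 0.0959 ± 0.140 and 3.07 ± 0.379 CPM (log2 fold change 4.93 ± 0.78, adjusted p = 0.000917 in edgeR), and 6.99 without treated WT replicate 2. The antisense gene HOXA11-AS, whose exons overlap HOXA11, had 0, 29 and 44 counts in untreated WT and 42, 56 and 147 in untreated KO and did not pass, and reads of the pair cannot be told apart.

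HOXA4, HOXA5 and HOXA6 overlapped between KO and WT in both treatments. Chromosome 7 as a whole was lower in KO: its 723 other tested genes had a median log2 fold change of -0.78 in untreated and -0.86 in treated cells, and 37.3% and 38.9% of them were called lower. The 9 tested genes within 1000 kb of HOXA had medians of -0.75 and -0.45. The falls of HOXA2 and HOXA3 thus stand beside a lower median of chromosome 7, whose part in them was not tested, while HOXA11 had a positive value on the same chromosome.

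**Figure D4:**
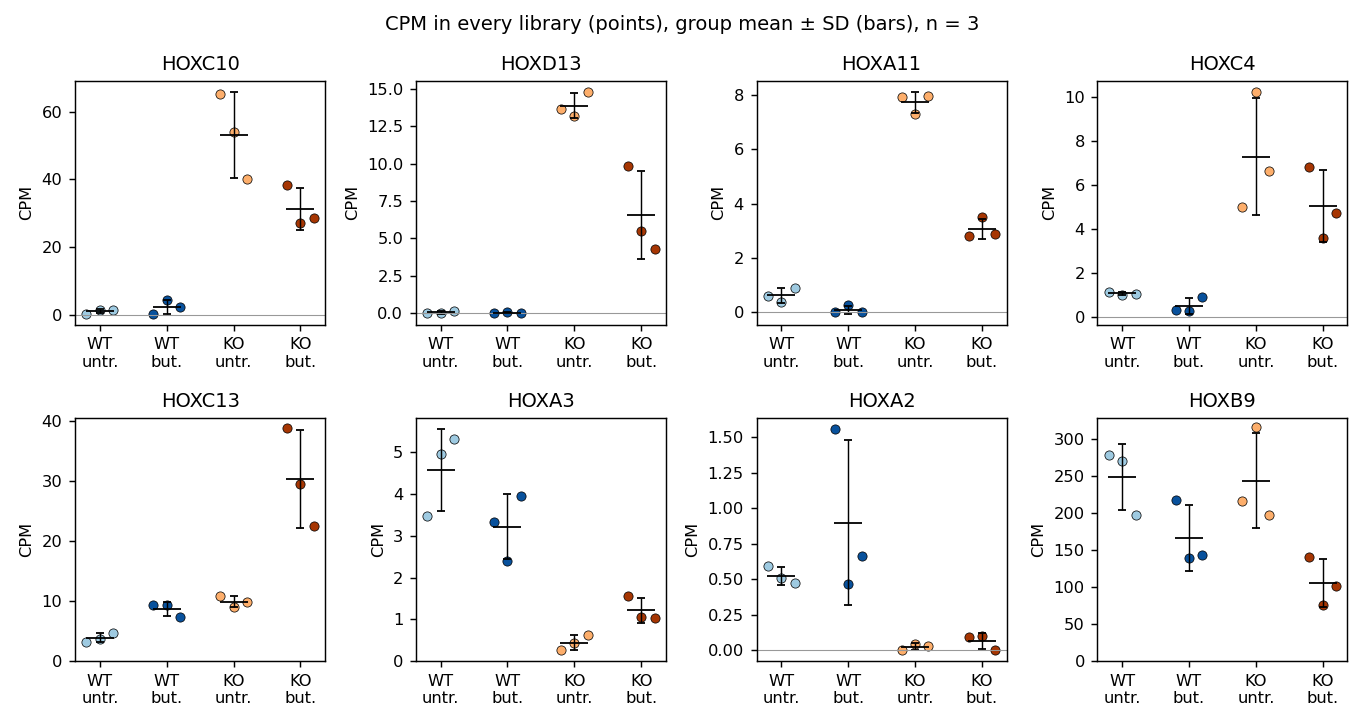
CPM of 8 HOX genes (y axis, each panel with its own scale) in the 4 groups (x axis). Points are libraries in order of replicate number and bars are the mean ± SD of 3 libraries; KO points lie above WT points for HOXC10, HOXD13, HOXA11, HOXC4 and, within each treatment, HOXC13, and below them for HOXA3 and HOXA2, while HOXB9 overlaps between WT and KO.

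In HOXB, the cluster with the most reads, 0 of 8 tested members passed in either treatment (edgeR), where 1 had an unadjusted p under 0.05 in untreated cells, against 34.6% of all tested genes, and 2 had in treated cells, against 31.6%. DESeq2 called HOXB6 in untreated (adjusted p = 0.0161) and HOXB8 in treated cells (0.0325). HOXB4, known for expanding blood stem cells, had 58.9 ± 9.64 CPM in untreated WT and 58.6 ± 6.39 in untreated KO, a log2 fold change of -0.01 ± 0.24. HOXB9 had 248 ± 44.8 against 243 ± 63.6 CPM (log2 fold change -0.03 ± 0.28) and HOXB2 55.8 ± 11.8 against 53.2 ± 13.9 CPM (-0.07 ± 0.57).

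HOXB8, known for holding myeloid progenitors in a dividing state, had 497, 966 and 513 counts in untreated WT and 230, 362 and 260 in untreated KO, and the groups met without overlap at 17.2 CPM. The log2 fold change was -1.22 ± 0.60 (adjusted p = 0.171 in edgeR, and 0.0357 with the replicate block). In treated cells it was -1.60 ± 0.61 (0.0860, and 0.00835 with the block), where the libraries overlapped, and it ranged from -2.60 without treated KO replicate 1 to -1.10 without treated WT replicate 1. The untreated value was -0.79 without untreated WT replicate 2. HOXB6 had 1.63 ± 0.635 CPM in untreated WT and 4.21 ± 0.152 in untreated KO (log2 fold change 1.36 ± 0.46, adjusted p = 0.0508 in edgeR, and 0.0291 with the block). Genes of chromosome 17 outside the cluster had a median log2 fold change of 0.00 in untreated and 0.01 in treated cells.

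The comparison of butyrate with no treatment asks how HOX genes respond to the inducer in each line. In WT, 2 of 25 members passed, both higher, against 2.35% of all tested genes (1.8% higher and 0.55% lower). In KO, 3 of 25 passed, 2 higher and 1 lower, against 3.4% (2.8% higher and 0.595% lower). The 2 members that rose were HOXC12 and HOXC13 in both lines, which lie next to each other at the 5′ end of HOXC. Treated and untreated libraries did not overlap for 7 of 25 members in WT, against 21.7% of all genes, and for 9 of 25 in KO, against 24.4%. Of these groups, the untreated and treated libraries of a line also enter the KO against WT comparisons above.

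HOXC12 (53954834 to 53958956) had 51, 138 and 195 counts in untreated WT and 207, 473 and 572 in treated WT. In KO it had 173, 175 and 326 counts untreated and 531, 755 and 1094 treated. Scaled for depth, it rose from 5.24 ± 2.15 to 16.4 ± 4.98 CPM in WT (log2 fold change 1.64 ± 0.36, adjusted p = 0.0361 in edgeR) and from 9.49 ± 1.30 to 28.2 ± 6.12 CPM in KO (1.57 ± 0.35, adjusted p = 0.0332 in edgeR). Every replicate number showed the rise, with differences in log2(CPM + 0.5) of 1.78, 1.58 and 1.40 in WT and 1.35, 1.53 and 1.65 in KO. In WT the call held in 4 of the 12 fits that left out a library (without treated WT replicate 1, untreated KO replicate 3, or treated KO replicate 1 or 3), with adjusted p from 0.0517 to 0.149 in the other 8. In KO it was lost without any of the 3 untreated KO libraries or without treated KO replicate 2 or 3, with adjusted p from 0.0701 to 0.162.

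HOXC13 rose from 3.95 ± 0.753 to 8.75 ± 1.19 CPM in WT (log2 fold change 1.14 ± 0.27, adjusted p = 0.0489 in edgeR) and from 9.93 ± 0.893 to 30.3 ± 8.13 CPM in KO (1.61 ± 0.27, adjusted p = 0.00995 in edgeR). The differences by replicate number were 1.39, 1.22 and 0.58 in WT and 1.79, 1.65 and 1.16 in KO, all positive. In WT the call held only without replicate 1 of treated WT or of treated KO, and the other 10 such fits gave adjusted p from 0.0551 to 0.180. Without all libraries numbered 1 it was 0.0579. In KO the call was lost without untreated replicate 2 (0.0774) or treated replicate 2 (0.0501).

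HOXC11, the next gene of the cluster (53973126 to 53977643), had 18, 21 and 31 counts in untreated KO and 98, 55 and 153 in treated KO, with no overlap but no call (log2 fold change 1.90 ± 0.85, adjusted p = 0.235 in edgeR). HOXC10, the gene after it, had a log2 fold change of -0.77 ± 0.57 in KO (adjusted p = 0.492 in edgeR), and all 3 treated KO libraries lay below the untreated ones. Both HOXC genes with calls for butyrate lie 5′ of it.

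HOXB9, the most abundant HOX gene, fell with butyrate in KO. It went from 216, 316 and 197 CPM in the untreated KO libraries to 140, 76.2 and 101 in the treated ones, and HOXB9 fell by 1.20 ± 0.28 on the log2 scale (adjusted p = 0.0380 in edgeR). The treated libraries all lay below the untreated ones. In WT it went from 278, 270 and 197 CPM to 218, 139 and 143, a log2 fold change of -0.57 ± 0.28 that did not pass (adjusted p = 0.306 in edgeR). The KO call held in 3 of the 12 fits that left out a library (without untreated WT replicate 3, treated WT replicate 1 or treated KO replicate 1), with adjusted p from 0.0501 to 0.175 in the other 9. The difference between the lines had an adjusted p of 1.0 in the interaction test.

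HOXB2, at the other end of the HOXB cluster, depended on the libraries numbered 1. Its counts were 1273, 991 and 1560 in untreated WT and 810, 258 and 287 in treated WT. In KO they were 1185, 1237 and 1117 untreated and 1262, 639 and 456 treated. Replicate 1 stayed the highest of its treated group in both lines. HOXB2 did not pass in either line (log2 fold change -1.43 ± 0.58, adjusted p = 0.219 in WT, and -0.77 ± 0.58, 0.498 in KO, edgeR). With the replicate block it passed in WT (0.0110), and without the libraries numbered 1 it passed in both (log2 fold change -2.31, adjusted p = 0.00171 in WT, and -1.44, 0.00888 in KO).

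With the replicate block, HOXA11 also passed for butyrate in WT (adjusted p = 0.0496). HOXA11 had a log2 fold change of -2.66 ± 0.77 in WT (0.0957 in edgeR, 0.00381 in DESeq2) and -1.33 ± 0.61 in KO (0.252 in edgeR, 0.0234 in DESeq2), with no overlap in either line. The WT value was -4.72 without treated WT replicate 2. DESeq2 also called HOXA3 in KO (adjusted p = 0.0360), where edgeR gave a log2 fold change of 1.42 with an adjusted p of 0.123. HOXD13, at 5 counts or fewer in every WT library, went from 13.7, 13.2 and 14.8 CPM in untreated KO to 9.88, 5.52 and 4.32 in treated KO, a log2 fold change of -1.08 ± 0.64 that did not pass (adjusted p = 0.375 in edgeR).

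**Figure D5:**
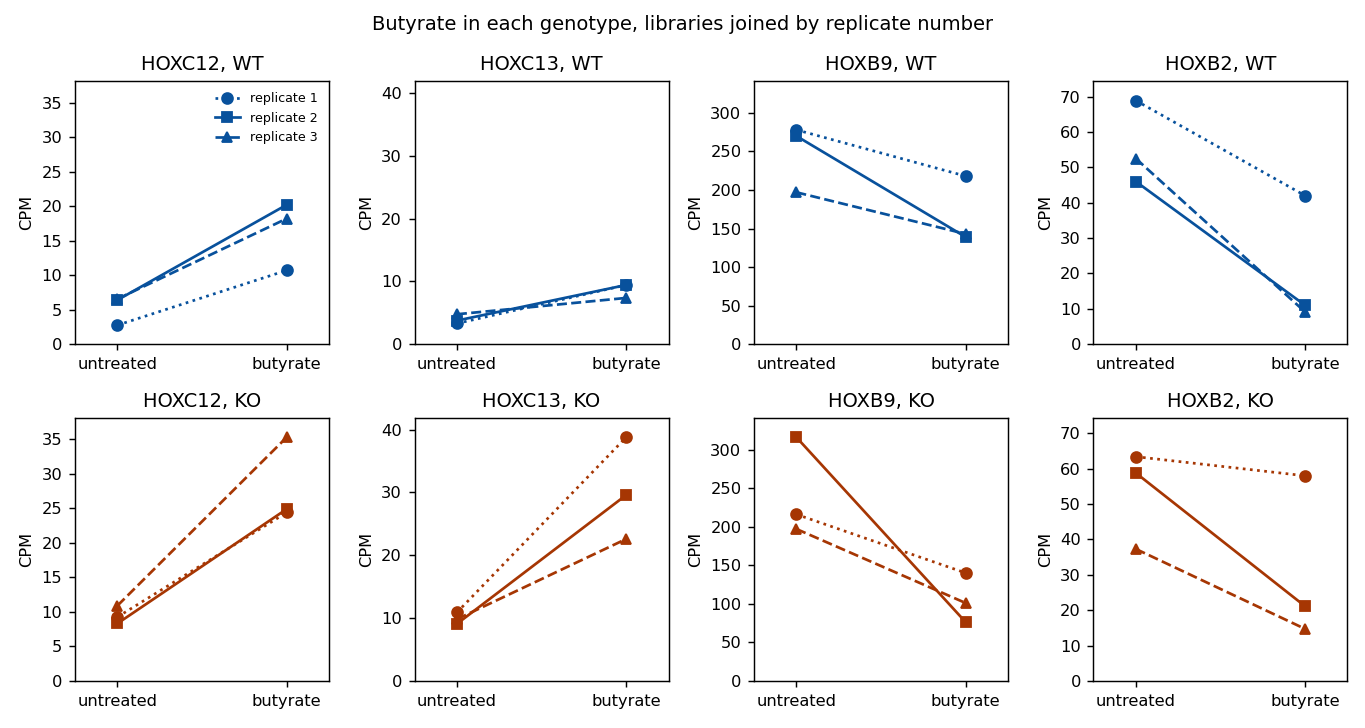
CPM of HOXC12, HOXC13, HOXB9 and HOXB2 (y axis, the same scale for WT and KO within a gene) in untreated and butyrate-treated cells (x axis). Lines join libraries with the same replicate number; HOXC12 and HOXC13 go up and HOXB9 goes down in each of the 6 lines, and replicate 1 of HOXB2 stays high after treatment.

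Whether butyrate acted differently in KO than in WT was tested by the interaction. No member passed (edgeR, 0 of 25, and 0 with DESeq2), and 1 member, HOXA3, had an unadjusted p under 0.05, against 4.16% of all tested genes. Of all 15805 genes 0 passed in edgeR. The interaction estimates of the members ran from -2.03 for HOXC5 to 1.93 for HOXA3 on the log2 scale, with SEs of 1.45 and 0.65. For HOXC12 the estimate was -0.07 ± 0.49 and for HOXC13 0.47 ± 0.38, which leaves room for differences of either sign.

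Noncoding RNAs of the clusters are long transcripts that lie between or antisense to HOX genes. Of 18 listed, 16 were in the table and 9 could be tested. In untreated cells 3 were higher in KO and 0 lower in edgeR (33.3%, against 22.6% of all tested genes). All 3 lie in HOXC (HOTAIR, HOXC-AS3 and HOXC13-AS), but not every noncoding RNA of that cluster was higher. HOXC-AS1 had 2.60 ± 0.725 CPM (SD) in untreated WT and 2.50 ± 0.192 in untreated KO. HOXC-AS2 had 2.27 ± 0.351 against 2.30 ± 0.677 CPM. In treated cells only HOXC13-AS passed in edgeR (11.1%, against 19.0%). DESeq2 called 5 of the 9 there, against 21.6% of all genes, among them HOXA11-AS (0.00613) and HOXC-AS3 (0.0408). HOTAIR, which lies between HOXC11 and HOXC12 and is known for its link to Polycomb repression, had 0, 5 and 0 counts in untreated WT and 64, 75 and 89 in untreated KO (log2 fold change 5.38 ± 0.98, adjusted p = 0.00172 in edgeR). The value was 9.38 without untreated WT replicate 2, the only untreated WT library with HOTAIR reads. In treated cells it had 10, 28 and 29 counts in WT and 112, 77 and 75 in KO. HOTTIP, the noncoding RNA at the 5′ end of HOXA, had at most 1 count in any library. None of the 9 passed for butyrate in either line in edgeR, against 2.35% of all genes in WT and 3.4% in KO. At an unadjusted p under 0.05 there were 2 in WT and 1 in KO, against 18.0% and 19.8% of all genes. DESeq2 called 1 in each line, HOTAIR in WT and HOXC13-AS in KO, against 8.06% and 8.6% of all genes. The median log2 fold change of KO over WT was 0.62 over the 9 in untreated and 1.11 in treated cells.

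For the genes that flank the clusters, 28 symbols were listed, older names of the same genes included. Of these, 24 were in the table and 18 could be tested. In untreated cells CBX5 was higher in KO and SKAP2, TAX1BP1 and NFE2 were lower in edgeR, 22.2% of the 18 against 22.6% of all tested genes. In treated cells ATP5MC1 was higher and SKAP2, TAX1BP1 and LNPK were lower, again 22.2%, against 19.0%. Both shares are near those of all genes. SKAP2, an adaptor protein gene on chromosome 7, went from 52.6 ± 12.8 CPM in untreated WT to 16.5 ± 1.67 in untreated KO (log2 fold change -1.67 ± 0.33, adjusted p = 0.00312 in edgeR). NFE2, an erythroid transcription factor gene near HOXC and itself on the erythroid marker list, had 346 ± 93.8 against 157 ± 18.8 CPM (log2 fold change -1.14 ± 0.29, adjusted p = 0.0125 in edgeR). The median of the 18 was -0.25 in untreated and -0.17 in treated cells. For butyrate against no treatment, 1 of the 18, MTX2 near HOXD, passed in KO and 0 in WT in edgeR, against 3.4% and 2.35% of all genes. In WT 3 had an unadjusted p under 0.05, against 18.0% of all genes, and DESeq2 called 2, against 8.06%. In KO 2 had an unadjusted p under 0.05, against 19.8%, and DESeq2 called 1, against 8.6%. MTX2 had a log2 fold change of -0.74 ± 0.18 in KO (adjusted p = 0.0406 in edgeR) and -0.72 ± 0.18 in WT (0.0546). The KO call held in 1 of the 12 fits that left out a library, with adjusted p up to 0.177.

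Among 25 MLL complex members, partners and other activators of HOX genes, 22 were tested. In untreated cells ASH2L and MLLT3 were higher and RARA was lower in KO in edgeR, 13.6% of the 22 against 22.6% of all tested genes. In treated cells MLLT3 alone passed in edgeR, 4.55% against 19.0%. There PSIP1 passed in DESeq2 (0.0330) and with the replicate block (0.0310), and KMT2A with the block (0.0196). MLLT3 encodes AF9, a subunit of the elongation complex that is fused to MLL in leukaemia. It had 0 counts in every untreated WT library and 0, 0 and 1 in treated WT, against 1031, 810 and 1267 in untreated KO and 1370, 1253 and 1304 in treated KO. That was at least 338-fold higher in untreated cells (adjusted p = 8.02e-07 in edgeR) and at least 386-fold in treated cells (7.54e-07). ASH2L, a core subunit of the MLL complexes, had 235 ± 34.9 against 363 ± 45.8 CPM in untreated cells (log2 fold change 0.63 ± 0.19, adjusted p = 0.0340 in edgeR). The calls of ASH2L and RARA held in 5 and 4 of the 12 fits that left out a library. The median of the 22 was -0.07 in untreated and -0.06 in treated cells.

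Of the Polycomb genes, all 16 listed for the PRC1 complex and all 11 for the PRC2 complex were tested. In untreated cells RING1, PHC2 and PHC3 of PRC1 were higher in KO and CBX2 was lower, and RBBP4 and JARID2 of PRC2 were higher (edgeR). That made 4 of 16 PRC1 and 2 of 11 PRC2 genes called, against 22.6% of all tested genes, with medians of 0.14 and -0.02. In treated cells PHC2 and RBBP4 were higher and CBX2 was lower in edgeR (12.5% of the PRC1 and 9.09% of the PRC2 genes, against 19.0%), and RING1 and EZH2 passed with the replicate block (0.0228 and 0.0182). RING1, a ubiquitin ligase of PRC1, had 210 ± 23.4 CPM in untreated WT and 373 ± 55.0 in untreated KO (log2 fold change 0.83 ± 0.18, adjusted p = 0.00571 in edgeR). CBX2, which reads the Polycomb mark on histone H3, had 67.2 ± 10.4 against 40.7 ± 2.93 CPM (log2 fold change -0.72 ± 0.21, adjusted p = 0.0250 in edgeR). JARID2, a cofactor of PRC2, had 87.5 ± 15.4 against 175 ± 27.3 CPM (log2 fold change 1.00 ± 0.26, adjusted p = 0.0165 in edgeR). For butyrate, 0 members of the activator and Polycomb lists passed in either line in edgeR, against 2.35% of all genes in WT and 3.4% in KO. At an unadjusted p under 0.05 these lists had 2, 3 and 1 members in WT, against 18.0% of all genes, and 4, 2 and 0 in KO, against 19.8%, in the order activators, PRC1 and PRC2. DESeq2 called 1, 1 and 0 members in WT, against 8.06% of all genes, and 3, 1 and 0 in KO, against 8.6%.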

How the data were processed

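RNA sequencing of 12 K562 libraries (4 groups of 3) was analysed from counts per gene symbol, which the authors deposited as 1 table of whole numbers. The submitters' processing notes name hg38, FastQC 0.12.1 and STAR 2.7.11b without their roles. The counting tool, annotation and use of strand are not given in the sources used here. Totals ran from 19963594 to 30348538 counts. Groups and replicate numbers came from the sample titles and columns were matched by library name, with 0 columns left unused.

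In R 4.3.3, edgeR 4.0.16 fitted quasi-likelihood models with 4 group means over all 12 libraries after filterByExpr (minimum count 10, leaving 15805 genes) and TMM scaling. For each of 5 contrasts, p was adjusted over the whole tested table (Benjamini-Hochberg, threshold 0.05). The fit was tested on simulated data. Group levels are TMM-scaled CPM with a pseudocount of 0.5 on the log scale, and levels between genes are per kb of exon in GENCODE release 29. A fold against a group with no library above 3 counts is a lower bound, taken against 3 counts per library. DESeq2 1.42.0 (Wald test) was an alternative, as were other scalings and filters, a replicate block and leaving out libraries. SDs are over the libraries of a group. SEs were derived from the fold change and F statistic of the edgeR fit over all 12 libraries. The limit of 3 counts covers counting error only, since no molecular identifiers are named.

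Libraries with the same number deviated together from their group means: the correlations over genes were 0.195 to 0.409 for butyrate in WT, 0.147 to 0.468 in KO, 0.210 to 0.361 for KO against WT untreated and 0.315 to 0.595 treated. Different numbers gave at most 0.186, 0.123, 0.0692 and 0.343. Replicates of a group all differed beyond sampling noise (chi-square per degree of freedom at least 38.9). Every HOX member could be named, with values for those detected or past the threshold. Of the other lists, members past the threshold and the 3 with the smallest p could be named. A few genes are not reported here. The members and lists were chosen with earlier results of these data known.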

Additional observations from a re-analysis of the deposited data

Results flagged for a closer look

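HOXA3 was the single HOX gene whose butyrate response had opposite signs in the WT and KO lines for every replicate number. The differences in log2(CPM + 0.5), treated minus untreated, were -0.06, -0.92 and -0.39 in WT and 1.43, 0.75 and 0.43 in KO. The interaction estimate was 1.93 ± 0.65 on the log2 scale, with an unadjusted p of 0.0109 and an adjusted p of 0.841 over all 15805 genes in edgeR (0.172 in DESeq2), so the difference did not pass the test. The counts behind it in KO were 5, 9 and 19 untreated and 34, 32 and 32 treated.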

How the results depend on the processing

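Counts of HOX members past the threshold depended on the setting where few passed. For butyrate in WT (2 members) the count was 0 with library size alone, 1 with no filter, 5 with the replicate block and 4 with DESeq2, and 0 to 4 when 1 library was left out. For butyrate in KO (3 members) it was 5 with DESeq2 and 0 to 3 when 1 library was left out. Requiring 10 counts in every library left 14 members to test, since genes under 10 counts in any library drop out by construction. For KO against WT, 2 then passed untreated (8 otherwise) and 1 treated (7 otherwise). The 2 were HOXC13 and HOXB6, of which HOXB6 was not among the 8, and the 1 was HOXC13. Leaving out 1 library gave 6 to 10 members untreated, 5 to 7 treated and 0 for the interaction.

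Numbers pair the libraries, and the fit with that replicate block called 5 members for butyrate in WT, 3 in KO, 12 for KO against WT untreated and 9 treated; members it added are named with the results where reported, and it ended none of the calls. Over all genes the block moved the calls for butyrate from 372 to 1361 in WT and from 537 to 1852 in KO, and for KO against WT treated from 3009 to 4612. Without the libraries numbered 1 butyrate gave 1884 and 2164, with DESeq2 1296 and 1490. Requiring 10 counts everywhere gave 304 for butyrate in KO, 2334 (3574 otherwise) for KO against WT untreated and 1947 treated. For the interaction, 0 became 2 with no filter, 1 with 10 counts everywhere, 3 with the block, 9 without the libraries numbered 1 and 81 with DESeq2. Of the alternatives for 33 single results, 513 kept the side of the threshold and the direction, 67 lost the call, 31 gained it and 0 reversed. Where no value or construction is given, the cause was not tested. Members under 3 counts cannot be ordered at this depth.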

Other observations

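Homeobox genes outside the HOX clusters also differed between the KO and WT lines. Of 31 listed, 18 were tested. DLX4 and SIX4 were among those higher in untreated KO, and HLX was lower. TLX1, MSX1 and SIX4 were among those higher in treated KO, where 0 were lower. SIX4 had 15.1 ± 2.33 CPM (SD, n = 3) in untreated WT and 30.5 ± 5.34 in untreated KO (log2 fold change 1.02 ± 0.27, adjusted p = 0.0160 in edgeR). TLX1, known for its role in T cell leukaemia, had 8.43 ± 2.29 CPM in treated WT and 20.8 ± 1.88 in treated KO (log2 fold change 1.30 ± 0.27, adjusted p = 0.00507 in edgeR). HLX, known from haematopoietic progenitors, had 1.92 ± 0.518 CPM in untreated WT and 0.389 ± 0.136 in untreated KO (log2 fold change -2.29 ± 0.59, adjusted p = 0.0146 in edgeR). The median log2 fold change of the 18 was 0.46 in untreated and 0.79 in treated cells, where 33.3% of them were called in each, against 22.6% and 19.0% of all tested genes. For butyrate 0 of the 18 passed in either line in edgeR, against 2.35% of all genes in WT and 3.4% in KO. At an unadjusted p under 0.05 there were 3 in WT, against 18.0% of all genes, and 5 in KO, against 19.8%. DESeq2 called 1 in WT, against 8.06% of all genes, and 2 in KO, against 8.6%.

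HOX members too low to test had scattered reads. HOXA13 had 20 counts in treated KO replicate 3 and at most 3 in any other library. HOXD8 had reads in 8 of 12 libraries, with 10 and 22 counts in treated WT replicates 2 and 3 and 6 and 9 in treated KO replicates 2 and 3, but 0 in replicate 1 of every group. HOXB13 had 9 counts in each of treated WT replicates 2 and 3, 4 and 8 in treated KO replicates 2 and 3, and 0 in replicate 1 of every group.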
